A study of Mus musculus with 3 samples.

Results

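The 35 genes described here are cell cycle genes of S phase and mitosis, taken by gene symbol from the 32285 genes of the deposited tables, and all 35 were found. Of them 13 act in S phase (Pcna, Mcm2, Mcm3, Mcm4, Mcm5, Mcm6, Mcm7, Tyms, Rrm1, Rrm2, Tk1, Pclaf and Gmnn). Another 21 act in mitosis or on the way into it (Mki67, Top2a, Cdk1, Ccnb1, Ccnb2, Ccna2, Birc5, Cenpa, Cenpf, Cenpe, Hmmr, Ube2c, Aurka, Aurkb, Plk1, Cdc20, Tpx2, Bub1, Kif11, Kif23 and Cdca8). Stmn1, which encodes the microtubule regulator stathmin, was counted in neither list.

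Transcripts of single cells were counted in 3 libraries of mouse back skin, 1 per group, all C57BL/6 and all given tamoxifen from postnatal day 48 to day 52. The control was K5-Cre-er/Piezo1fl/+/Tdfl/+ and was taken at P62. The 2-week knockout was K5-Cre-er/Piezo1fl/fl/Tdfl/+ at P62, and the 3-week knockout was K5-Cre-er/Piezo1fl/fl/Tdfl/fl at P71. All 3 groups thus carried the keratin 5 driven inducible Cre and at least 1 floxed Piezo1 allele, no control of the older age was part of the series, and the 3-week knockout also differed in its Td alleles. Genotype, age and library cannot be told apart at 3 weeks, nor genotype and library at 2 weeks. With 1 library per group no test was possible: every interval below is a 95% interval for counting error only, and no difference has a replicate check. The labels do not say whether cells of several animals were pooled.

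Piezo1, the targeted gene, was at 34.7 CPM (UMIs of the gene per 1000000 UMIs of the same cells) in the epithelial cells of control, 27.7 in the 2-week and 15.2 in the 3-week knockout, and at 61.9, 50.1 and 36.6 CPM in all other cells. The ratios to control were 0.799 and 0.437 in epithelial cells and 0.809 and 0.591 in the others, so the level was lower outside the epithelium too. Whether the deleted exons lie under the sequenced 3' ends is not given in the sources used here. After filtering, 4912, 9585 and 9599 cells were kept in control, 2-week and 3-week knockout, with medians of 9989, 7506 and 8768 unique transcript counts, or UMIs. The libraries shared 12 to 20 cell barcodes pairwise. Epithelial cells were 68.4%, 88.2% and 72.0% of the kept cells.

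The genes copy and divide the genome. In S phase the MCM proteins unwind DNA as a helicase ring, PCNA clamps the polymerases to it, and ribonucleotide reductase, thymidylate synthase and thymidine kinase make the nucleotides. In G2 and mitosis cyclin B with CDK1 starts division, Aurora and Polo-like kinases build the spindle, centromere proteins attach chromosomes to it, and the anaphase-promoting complex with CDC20 and UBE2C ends it. In skin, division takes place mainly among basal keratinocytes and in the hair follicle, while suprabasal cells have left the cycle and bulge stem cells are quiescent for long times.

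The promoters of the 2 lists were compared first, since expression of S-phase genes is classically tied to E2F sites and that of mitotic genes to a cell cycle genes homology region (CHR) near CCAAT boxes. RefSeq promoter windows on GRCm38.p6, 250 bases before to 50 after the start, were found for 29 of the 35 members. Ccna2, Stmn1, Aurkb, Mcm4, Gmnn and Tpx2 had none, and Mcm7 had 2. Stretches from 170 bases before the start to 30 bases from it are shown for 4 mitotic members with a CHR match, for 3 S-phase members with E2F matches and for Ccnb1, a mitotic member without a CHR match, 5′ to 3′ on the gene's strand, with matches in capitals. The letters searched, on both strands, were TTTGAA for the CHR, CCAAT, and 4 forms for E2F. The first form was TTCCCGC, the second was TTCGCGC, the third was TTGCCGC and the last was TTGGCGC. Matches to different motifs may overlap.
Cdc20: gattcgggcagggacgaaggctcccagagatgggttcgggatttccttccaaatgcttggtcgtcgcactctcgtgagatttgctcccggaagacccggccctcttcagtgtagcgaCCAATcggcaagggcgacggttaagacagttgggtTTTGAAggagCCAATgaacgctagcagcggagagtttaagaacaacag
Ccnb2: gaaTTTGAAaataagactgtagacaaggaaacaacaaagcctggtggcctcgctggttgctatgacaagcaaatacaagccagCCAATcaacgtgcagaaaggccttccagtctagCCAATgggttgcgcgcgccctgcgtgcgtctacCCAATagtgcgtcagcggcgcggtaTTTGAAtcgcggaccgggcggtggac
Cdk1: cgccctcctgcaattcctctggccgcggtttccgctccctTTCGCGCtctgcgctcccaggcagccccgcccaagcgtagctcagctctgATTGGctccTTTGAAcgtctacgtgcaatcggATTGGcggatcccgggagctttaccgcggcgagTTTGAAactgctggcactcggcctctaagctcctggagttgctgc
Top2a: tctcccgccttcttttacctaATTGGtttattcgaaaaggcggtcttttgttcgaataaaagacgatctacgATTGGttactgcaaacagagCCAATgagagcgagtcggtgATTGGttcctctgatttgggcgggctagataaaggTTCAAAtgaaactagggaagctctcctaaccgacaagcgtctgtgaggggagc
Ccnb1: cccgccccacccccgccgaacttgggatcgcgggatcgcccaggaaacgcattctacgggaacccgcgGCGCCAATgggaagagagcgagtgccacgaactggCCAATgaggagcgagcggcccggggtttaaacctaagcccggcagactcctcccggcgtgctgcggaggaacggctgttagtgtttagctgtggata
Mcm5: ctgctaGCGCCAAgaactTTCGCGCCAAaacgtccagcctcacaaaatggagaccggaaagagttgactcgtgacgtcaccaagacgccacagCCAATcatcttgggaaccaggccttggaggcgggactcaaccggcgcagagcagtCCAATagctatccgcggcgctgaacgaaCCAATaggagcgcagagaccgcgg
Mcm6: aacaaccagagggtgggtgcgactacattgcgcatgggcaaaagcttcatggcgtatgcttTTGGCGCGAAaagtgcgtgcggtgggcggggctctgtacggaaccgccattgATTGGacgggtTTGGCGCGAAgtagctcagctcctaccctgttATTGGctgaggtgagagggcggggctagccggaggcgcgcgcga
Pclaf: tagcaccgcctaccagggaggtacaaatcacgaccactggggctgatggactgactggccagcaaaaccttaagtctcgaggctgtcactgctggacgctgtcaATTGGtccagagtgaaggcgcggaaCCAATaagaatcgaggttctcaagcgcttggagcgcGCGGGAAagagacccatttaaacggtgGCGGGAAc
These lie at chr4:118437314-118437513 for Cdc20, chr9:70421525-70421724 for Ccnb2, chr10:69352883-69353082 for Cdk1, chr11:99024160-99024359 for Top2a and chr13:100786457-100786656 for Ccnb1, all on the minus strand. The others are chr8:75109339-75109538 for Mcm5 on the plus strand, chr1:128359676-128359875 for Mcm6 on the minus strand and chr9:65890153-65890352 for Pclaf on the plus strand.

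A CHR match was in 14 of 18 mitotic windows (77.8%) and in 1 of 12 S-phase windows (8.33%, Mcm2), against 17.9% of all 32851 windows. Matches for E2F showed the opposite division, with 8 of 12 S-phase windows (66.7%), 4 of 18 mitotic windows (22.2%) and 9.57% of all windows. CCAAT was frequent in both lists, at 94.4% of mitotic and 83.3% of S-phase windows against 37.4% of all, and at least 2 copies were in 72.2%, 50% and 11.7%. Cdc20, the activator of the anaphase-promoting complex, has its CHR match 18 bases before the start between 2 CCAAT boxes, and Ccnb2, cyclin B2, has 3 CCAAT boxes before 1 of its 2 CHR matches, which lies just after the start. Mcm5 and Mcm6, both helicase subunits, hold E2F matches that overlap in pairs, 1 pair in Mcm5 and 2 in Mcm6. Ccnb1, cyclin B1, and Cdk1 are mitotic members that hold E2F matches. Ccnb1 has 2 CCAAT boxes, 1 of them overlapping an E2F match, and no CHR match in these letters, and Birc5, Tk1 and Tyms hold none of the 3 motifs. These are letter matches and do not show binding.

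**Figure D1:**
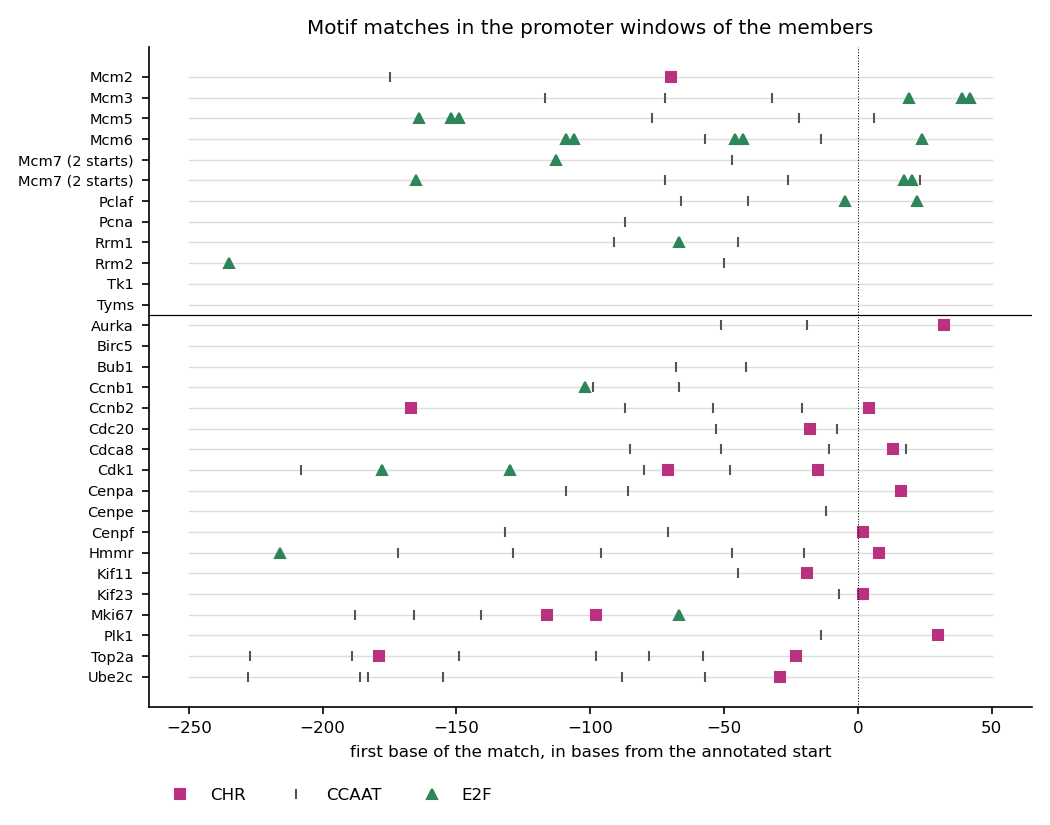
First bases of motif matches (squares CHR, bars CCAAT, triangles E2F) against distance in bases from the annotated start, 1 line per promoter window, S-phase members above and mitotic members below the black line. Squares fall almost wholly among the mitotic lines (14 of 18 windows against 1 of 12), triangles mostly among the S-phase lines (8 of 12 against 4 of 18).

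To find out which cells express the members, cells were clustered without the cell cycle genes of S phase, G2 and mitosis and named by marker likeness. A cell was counted as having mitotic or S-phase members when it held UMIs of at least 3 different members of that list after every cell was thinned at random to 3000 UMIs. Mitotic and S-phase cells below are named by these lists, and no phase was measured. In epithelial cells 184 of 3198 control cells (5.75%, interval 4.97 to 6.62), 370 of 7801 2-week cells (4.74%, 4.28 to 5.24) and 438 of 6475 3-week cells (6.76%, 6.16 to 7.40) had mitotic members. S-phase members were found together in 4.28%, 3.68% and 6.63% of the cells, with intervals of 3.61 to 5.04, 3.27 to 4.12 and 6.03 to 7.26. The 3-week share of S-phase cells thus lay above both others by more than counting error, whereas the mitotic interval of control overlapped those of both knockouts, which did not overlap each other. Without bulge-like cells the mitotic shares were 6.85% (5.92 to 7.87), 7.27% (6.57 to 8.03) and 7.64% (6.96 to 8.36), and all 3 intervals overlapped. Unthinned, the shares were 9.20%, 6.79% and 9.93% for mitotic and 27.1%, 16.2% and 29.0% for S-phase members. The thinned shares leave out 161, 649 and 433 cells with under 3000 UMIs.

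From 4 to 7 different members per cell, the numbers of cells stayed about level for mitotic members and declined for S-phase members. In control 83.96% of epithelial cells had none of the 21 mitotic members after thinning, 285 cells had 1, 44 had 2 and 15 had 3. There 103 cells (3.22%) had 8 or more, a class that gathers all higher numbers. With 4, 5, 6 and 7 mitotic members there were 15, 22, 13 and 16 control cells. The same numbers of members were held by 27, 26, 32 and 24 cells at 2 weeks and by 21, 32, 20 and 23 at 3 weeks. In the 2-week knockout 699 cells had 1, 106 had 2 and 42 had 3, with 219 cells (2.81%) at 8 or more, and in the 3-week knockout 652 had 1, 78 had 2 and 29 had 3, with 313 cells (4.83%) at 8 or more. For S-phase members 1123, 2787 and 2031 cells had 1, 285, 641 and 586 cells had 2 members, 56, 148 and 182 had 3, and 9, 13 and 22 had 8 or more. With 4, 5, 6 and 7 S-phase members there were 29, 17, 16 and 10 control cells. At 2 weeks these were 63, 35, 16 and 12 cells and at 3 weeks 114, 54, 40 and 17. A cell called by S-phase members was therefore more often close to the limit used than one called by mitotic members.

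Most mitotic cells lay in 2 epithelial groups. The class like interfollicular basal keratinocytes, here basal-like (markers such as Krt5, Krt14 and Itga6), held 42.8%, 55.1% and 61.9% of all cells with mitotic members of control, 2-week and 3-week knockout, and an epithelial cluster without a class name, cluster 1 (led by Igf2bp2, Aldh3a1, Fst and Gata6), held 33.3%, 27.2% and 23.6%. Within the basal-like class 10.5%, 12.8% and 13.0% of cells had mitotic members, with intervals of 8.45 to 12.8, 11.2 to 14.5 and 11.6 to 14.5. The suprabasal-like class had 1.44%, 1.20% and 1.32%, and the upper hair follicle-like class 2.26%, 1.90% and 1.76%. Sebaceous gland-like cells were few (98, 20 and 115 cells) and had 8, 4 and 16 cells with mitotic members. Among cells that were not epithelial the shares were 1.24%, 1.09% and 0.804%, from 17, 9 and 16 cells.

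Bulge-like cells (led by Krt24, Angptl7 and Lgr5) had almost none. In control 0 of 511 cells had mitotic members, which allows a share of up to 0.587%, and the knockouts had 7 of 2810 (0.249%) and 1 of 754 (0.133%). Their summed mitotic level was 16.6, 39.4 and 26.6 CPM, and in the 2-week library 1 cell held 23.1% of these UMIs. The summed S-phase level of the same cells was 273, 252 and 251 CPM, most of it Pcna at 190, 172 and 161 CPM. Dermal papilla-like cells, another largely resting type, had mitotic members in 0 of 371, 1 of 383 and 0 of 588 cells and S-phase members in 1.62%, 0.783% and 1.19%, at median depths of 4538, 4090.5 and 3589 UMIs against 11880, 7914.5 and 11068 in epithelial cells. S-phase members were together in 0 of 511, 1.14% and 0.663% of bulge-like cells and in 0.412%, 0.798% and 0.858% of suprabasal-like cells. No value here measured the share that free RNA alone would give, and no difference is read from shares this low.

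**Figure D2:**
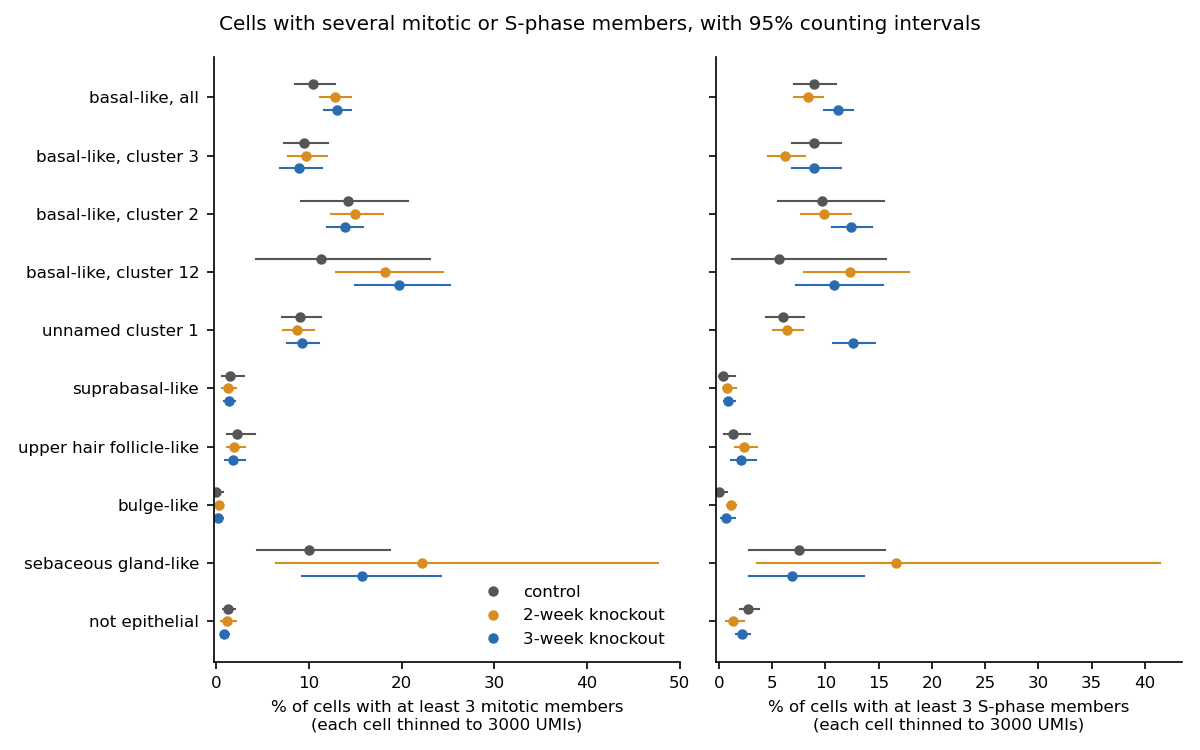
Share of cells with at least 3 mitotic members (left) and at least 3 S-phase members (right) in percent after thinning, per class or cluster and library, with points for shares and lines for exact 95% counting intervals. Within clusters 1, 2 and 3 the mitotic shares of the 3 libraries lie close together, while the S-phase share of cluster 1 is 12.6% in the 3-week knockout against 6.04% and 6.36%.

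The clusters inside the basal-like class were held in different numbers by the libraries. Cluster 3 (Itga2, Epgn, Tslp and Nrg1) had 617, 797 and 657 cells, cluster 2 (outside cell cycle genes led by Cysltr1, Krt14, Sox6 and Tnfrsf19) had 159, 681 and 1268, and cluster 12 had 62, 211 and 275. Although made without the listed genes, clusters 2 and 12 were led by cell cycle genes, so their borders may still follow division. Within cluster 3 the shares with mitotic members were 9.45%, 9.63% and 8.95%, within cluster 2 they were 14.2%, 14.98% and 13.8%, and within cluster 1 they were 8.99%, 8.73% and 9.24%. In each of these 3 clusters these shares differed by less than counting error. The summed mitotic levels differed by more. In cluster 2 they were 0.838 (0.807 to 0.870) and 0.891 (0.861 to 0.924) times control at 2 and 3 weeks. In cluster 1 they were 0.982 (0.951 to 1.01) and 1.08 (1.05 to 1.11), and in cluster 3 they were 0.976 (0.947 to 1.01) and 1.18 (1.15 to 1.22). Cluster 12 had 11.3%, 18.2% and 19.7%, with a control value from 6 cells and intervals that overlapped.

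The S-phase share of cluster 1 differed between libraries by more than counting error. The share with S-phase members was 6.04% (4.44 to 7.999) in control, 6.36% (5.03 to 7.90) at 2 weeks and 12.6% (10.8 to 14.7) at 3 weeks. Cells with S-phase but without mitotic members numbered 22, 31 and 79, of 745, 1180 and 1158. In cluster 3 the S-phase shares were 8.96%, 6.21% and 8.95% and in cluster 2 they were 9.68%, 9.83% and 12.4%, all with overlapping intervals. The median depth of cluster 1 was 10653, 8173 and 9347 UMIs, and unthinned its S-phase shares were 27.7%, 21.1% and 32.0%.

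The sum of the 21 mitotic members in all epithelial cells stood at 523.7, 448.9 and 637.7 CPM in control, 2-week and 3-week knockout, thus 0.857 times (0.844 to 0.871) and 1.22 times (1.20 to 1.24) control. Basal-like cells had 969, 1164 and 1445 CPM (1.20 and 1.49 times control). These sums depended on how the clusters were weighted. With every library weighted to the epithelial clusters of control, the epithelial ratios were 0.934 and 1.05. Within the basal-like class the ratios were 0.976 and 1.15, so the 2-week basal ratio passed to the other side of 1. Clusters 2 and 12 were themselves led by cell cycle genes. Holding their weights may thus also take out part of a difference in division, and the 2 parts were not told apart. Without bulge-like cells, which were 531, 3034 and 875 in number, the 2-week epithelial ratio was 1.002 (0.986 to 1.02). The 13 S-phase members summed to 308.7, 283.1 and 321.6 CPM (0.917 and 1.04 times control), and Stmn1 stood at 145.9, 135.0 and 194.3 CPM (0.925 and 1.33). Mitotic UMIs per S-phase UMI were 1.70, 1.59 and 1.98.

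Turning to single members, the helicase and clamp genes came first. Mcm5 was at 10.8, 5.99 and 12.01 CPM in the epithelium of control, 2-week and 3-week knockout, so only the 2-week library was low (0.552 times control, 0.488 to 0.625). It was low at 2 weeks within each of the 3 clusters too, at 0.690, 0.542 and 0.525 times control in clusters 1, 2 and 3. The other 5 MCM genes ranged from 0.757 (Mcm3) to 1.02 (Mcm7) at 2 weeks and from 0.900 (Mcm4) to 1.33 (Mcm2) at 3 weeks. Pcna, the S-phase member with the most UMIs, was at 115, 114 and 93.7 CPM, and the 3-week library was the lowest (0.818, 0.791 to 0.846). Pclaf, a partner of PCNA, was at 30.2, 27.5 and 33.5 CPM. Gmnn, geminin, which keeps replication from starting again, was at 9.33, 12.03 and 17.02 CPM and was highest at 3 weeks (1.82, 1.64 to 2.03).

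Among the nucleotide enzymes, Tk1, thymidine kinase, was at 5.82 and 6.06 CPM in the P62 libraries and at 9.74 CPM in the 3-week knockout (1.67, 1.46 to 1.92). Rrm1, the large subunit of ribonucleotide reductase, was at 34.1, 27.8 and 36.8 CPM. Rrm2, its small subunit, was at 12.2, 13.3 and 16.5 CPM, and Tyms, thymidylate synthase, at 17.1, 12.5 and 20.6 CPM. The 3-week value was the highest for all 4 enzymes, by 1.08 to 1.67 times control.

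Plk1, Polo-like kinase 1, had the largest 3-week ratio of the 35 members. It was at 2.77, 3.97 and 6.92 CPM from 134, 341 and 662 UMIs, which made the 3-week ratio 2.50 (2.07 to 3.03). Aurka, the spindle pole kinase, was at 3.097, 3.70 and 5.94 CPM (3-week ratio 1.92, 1.60 to 2.31), and Aurkb, the kinase of the chromosomal passenger complex, at 4.03, 3.98 and 7.32 CPM (1.82, 1.55 to 2.14). For Aurkb the P62 libraries were alike and the 3-week library alone was high. Bub1, a checkpoint kinase, was at 4.36, 3.81 and 5.40 CPM.

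Of the cyclins and regulators of mitotic exit, Ccna2, Ccnb2 and Cdc20 passed the 1.5-fold limit at 3 weeks. Ccna2, cyclin A2, was at 8.47, 10.1 and 15.3 CPM (3-week ratio 1.81) and Ccnb2 at 10.8, 12.8 and 17.1 CPM (1.58). Cdc20 was at 19.2, 17.9 and 31.0 CPM (1.62). Ccnb1 was at 11.1, 10.1 and 16.7 CPM, and its 3-week ratio fell just short of the limit of 1.5. Below the limit too were Cdk1, their kinase, at 17.6, 14.5 and 24.0 CPM and Ube2c, a ubiquitin-conjugating enzyme of the anaphase-promoting complex, at 40.1, 38.7 and 54.2 CPM.

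Mki67, Top2a, Kif11 and Cenpe stood near control at 3 weeks. Mki67, which encodes the Ki-67 antigen, was at 86.6, 64.4 and 84.7 CPM, with a 3-week ratio of 0.978 (0.942 to 1.02). Top2a, topoisomerase II alpha, was at 94.6, 72.7 and 95.3 CPM (1.01, 0.973 to 1.04). Kif11, the bipolar spindle kinesin, was at 20.2, 13.3 and 19.7 CPM and was low only at 2 weeks (0.658, 0.604 to 0.717). Cenpe, a centromere motor, followed the same order at 23.8, 17.8 and 23.5 CPM. Cenpf, another centromere protein, was at 42.6, 37.1 and 58.5 CPM, and Cenpa, the centromeric histone, at 27.1, 28.0 and 31.7 CPM. The other mitotic members, Birc5, Hmmr, Tpx2, Kif23 and Cdca8, had ratios of 0.835 to 1.01 at 2 weeks and of 1.23 to 1.47 at 3 weeks.

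By a limit of 1.5-fold in members with at least 50 UMIs over both libraries, which all 35 had, 0 members were higher and 2 lower (Mcm5 and Kif11) at 2 weeks, where 12% of 13701 genes were higher and 7.15% lower. At 3 weeks 8 members were higher (Plk1, Aurka, Gmnn, Aurkb, Ccna2, Tk1, Cdc20 and Ccnb2) and 0 lower, against 10.2% higher and 10.9% lower of 13652 genes. The count of 8 was 3 with 5 CPM added to both levels and 13 without the epithelial clusters that had no class name. The median log2 ratio was -0.21 for S-phase and -0.14 for mitotic members at 2 weeks (0.04 over all genes) and 0.22 and 0.44 at 3 weeks (0.01 over all genes). Both knockouts were set against the same control library. In basal-like cells 3 members were higher at 2 weeks (Plk1, Ccna2 and Ccnb2, background 8.44%) and 1 lower (Mcm5, background 4.16%). At 3 weeks 17 were higher, 14 of them mitotic, where 14.2% of 11227 genes were higher, and 0 were lower (background 8.06%). The 17 included Ccnb1 (21.8, 27.9 and 39.0 CPM), Birc5 or survivin (34.7, 48.5 and 61.8), Cenpf (78.5, 96.4 and 141), Ube2c (69.8, 101 and 130), Cdk1 (34.1, 39.7 and 54.2), Cdca8 or borealin (44.6, 53.0 and 71.03), Cenpa (43.7, 63.5 and 71.9), Hmmr (36.8, 52.5 and 56.1) and Stmn1 (206, 255 and 324). As above, this class differed between libraries in its mix of clusters.

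The level of each member was then compared only among epithelial cells with mitotic members, chosen without the member itself. The number of dividing cells thus no longer entered, but their cluster mix did. In these 173 to 184 control, 343 to 370 2-week and 420 to 438 3-week cells, by member, Mki67 was at 932, 868 and 894 CPM and Top2a at 972, 918 and 981 CPM. Plk1 was at 30.5, 52.9 and 72.8 CPM, which gave ratios of 1.73 (1.41 to 2.14) at 2 weeks and 2.39 (1.97 to 2.90) at 3 weeks. Aurka was at 29.2, 40.0 and 57.3 CPM, Aurkb at 43.5, 52.2 and 76.4, Ccna2 at 90.4, 134 and 162, Ccnb2 at 114, 163 and 180, and Cdc20 at 190, 222 and 310. Each of these 6 was above 1.5-fold at 3 weeks (1.58 to 2.39), and they were the only mitotic members that were, where 9.01% of 9873 genes were higher. None of the 21 was as much lower (background 9.02%), and Plk1 alone was higher at 2 weeks (background 5.53% higher and 6.86% lower). Of all cells with mitotic members, cluster 2 held 10.9%, 26.1% and 38.3% in control, 2-week and 3-week knockout. Cluster 3 held 28.9%, 20.1% and 12.8%. The part of this mix in the ratios was not tested.

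Among S-phase members the order of the libraries differed within the same cells. Pcna was at 214, 146 and 172 CPM, Mcm4 at 61.5, 39.9 and 37.8 and Mcm5 at 58.0, 32.4 and 44.5, so all 3 were highest in control. Tk1 was at 43.3, 56.7 and 70.4 CPM and Gmnn at 47.96, 61.6 and 76.5, so both were lowest in control. At 3 weeks 2 S-phase members were 1.5-fold higher (Tk1 and Gmnn) and 1 lower (Mcm4), where 9.01% of all genes were higher and 9.02% lower. At 2 weeks 0 were higher and 2 lower (Mcm4 and Mcm5), against 5.53% and 6.86% of all genes. No result is read from counts this small. Median depth of the mitotic cells was 21265.5, 14595.5 and 18391 UMIs, and the parts of depth and cluster mix in these ratios were not tested.

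**Figure D3:**
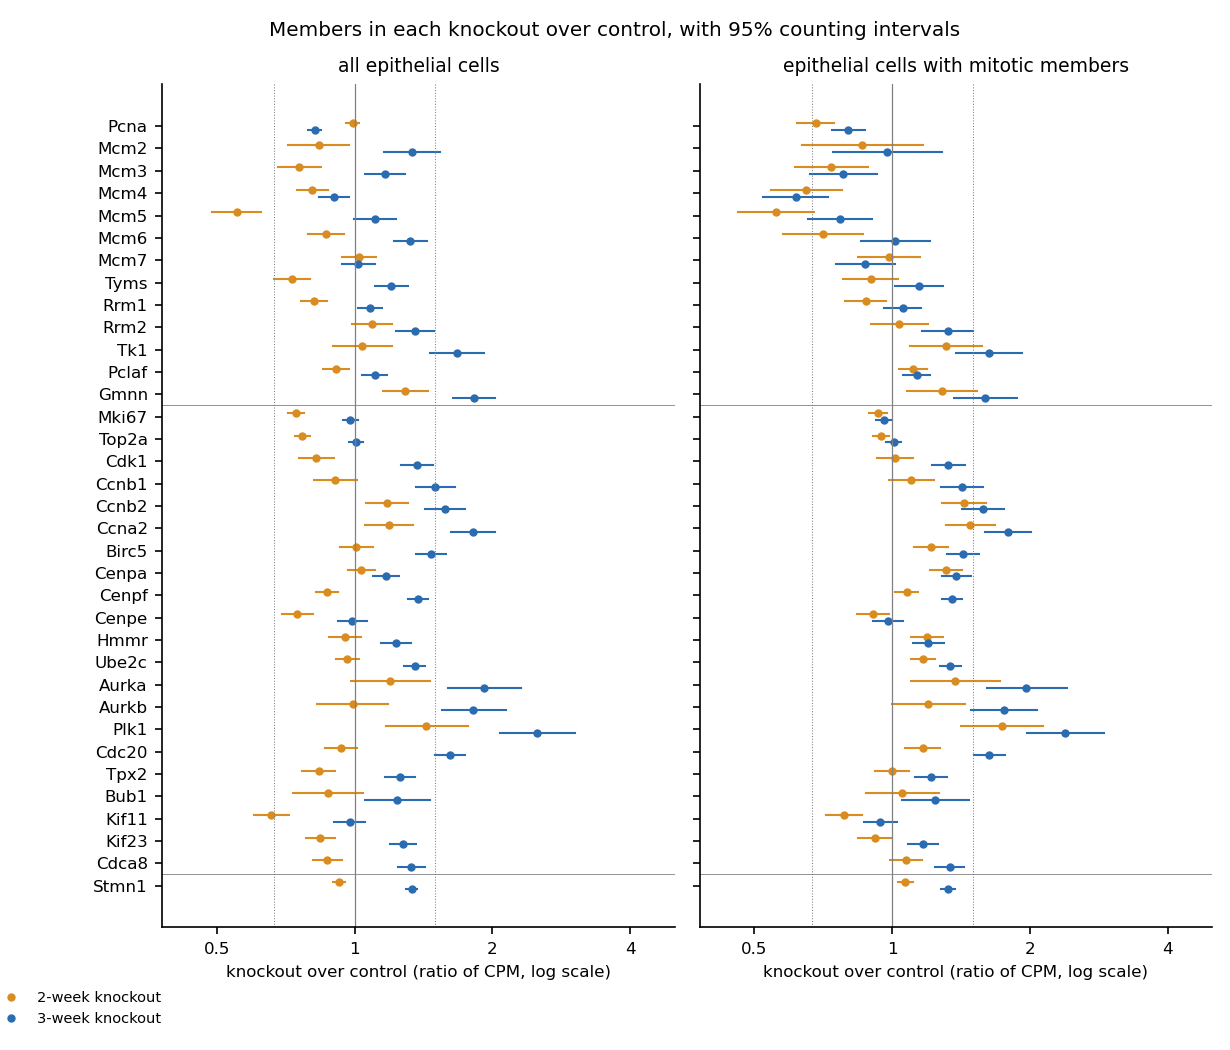
Ratio of CPM in each knockout over control for the 35 members (log scale, dotted lines at 1.5-fold either way), in all epithelial cells (left) and in epithelial cells with mitotic members (right), with 95% counting intervals. Plk1, Aurka, Aurkb and Ccna2 lie to the right of the upper dotted line at 3 weeks in both panels, while Mki67 and Top2a lie near 1.

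The higher late mitotic members at 3 weeks were not seen in every cluster. Plk1 at 3 weeks was 2.96 times control (1.92 to 4.74) in cluster 1 and 2.26 times (1.52 to 3.44) in cluster 3, but 1.08 times (0.756 to 1.61) in cluster 2. Cdc20 was at 22.9, 29.4 and 32.0 CPM in cluster 1 and 25.8, 25.1 and 47.3 CPM in cluster 3, but 88.8, 58.1 and 73.9 CPM in cluster 2. Ccnb2 likewise had 3-week ratios of 1.45, 1.72 and 0.871 in clusters 1, 3 and 2. At 3 weeks 4 mitotic members were 1.5-fold higher in cluster 1 (11.3% of all genes were), 6 in cluster 3 (9.31%) and 0 in cluster 2 (6.58%). Of all 35 members, 0 were as much lower in cluster 1 (8.39% of all genes) and cluster 3 (6.74%), and 1, Cenpe, was in cluster 2 (9.73%). At 2 weeks 3 members were higher in cluster 1 (Gmnn, Aurka and Plk1, background 7.28%) and 0 in cluster 2 (4.87%) and cluster 3 (5.39%). Lower at 2 weeks were 1 in cluster 1 (Kif11, background 4.54%), 4 in cluster 2 (Mcm5, Cenpe, Aurka and Cdc20, 5.99%) and 2 in cluster 3 (Mcm3 and Mcm5, 3.89%). Control contributed 159 cells to cluster 2, the fewest of the 3 clusters, with 33 UMIs of Plk1.

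In cluster 1 the S-phase members stood higher at 3 weeks. All 13 were above control, 6 of them by 1.5-fold (11.3% of all genes were), with a median log2 ratio of 0.53 (0.03 over all genes). Mcm2 was at 9.50, 7.59 and 16.9 CPM, Mcm3 at 15.6, 15.6 and 28.2, Mcm5 at 15.4, 10.6 and 26.1 and Mcm6 at 20.8, 21.7 and 34.7, and in all 4 the 3-week library alone was high. Gmnn was at 9.72, 15.4 and 22.9 CPM and Tk1 at 7.82, 8.33 and 14.7 CPM. Pcna differed little (131, 120 and 136 CPM), as did Mki67 (137, 123 and 137 CPM). In clusters 2 and 3 none of the 13 was 1.5-fold higher at 3 weeks, where 6.58% and 9.31% of all genes were.

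**Figure D4:**
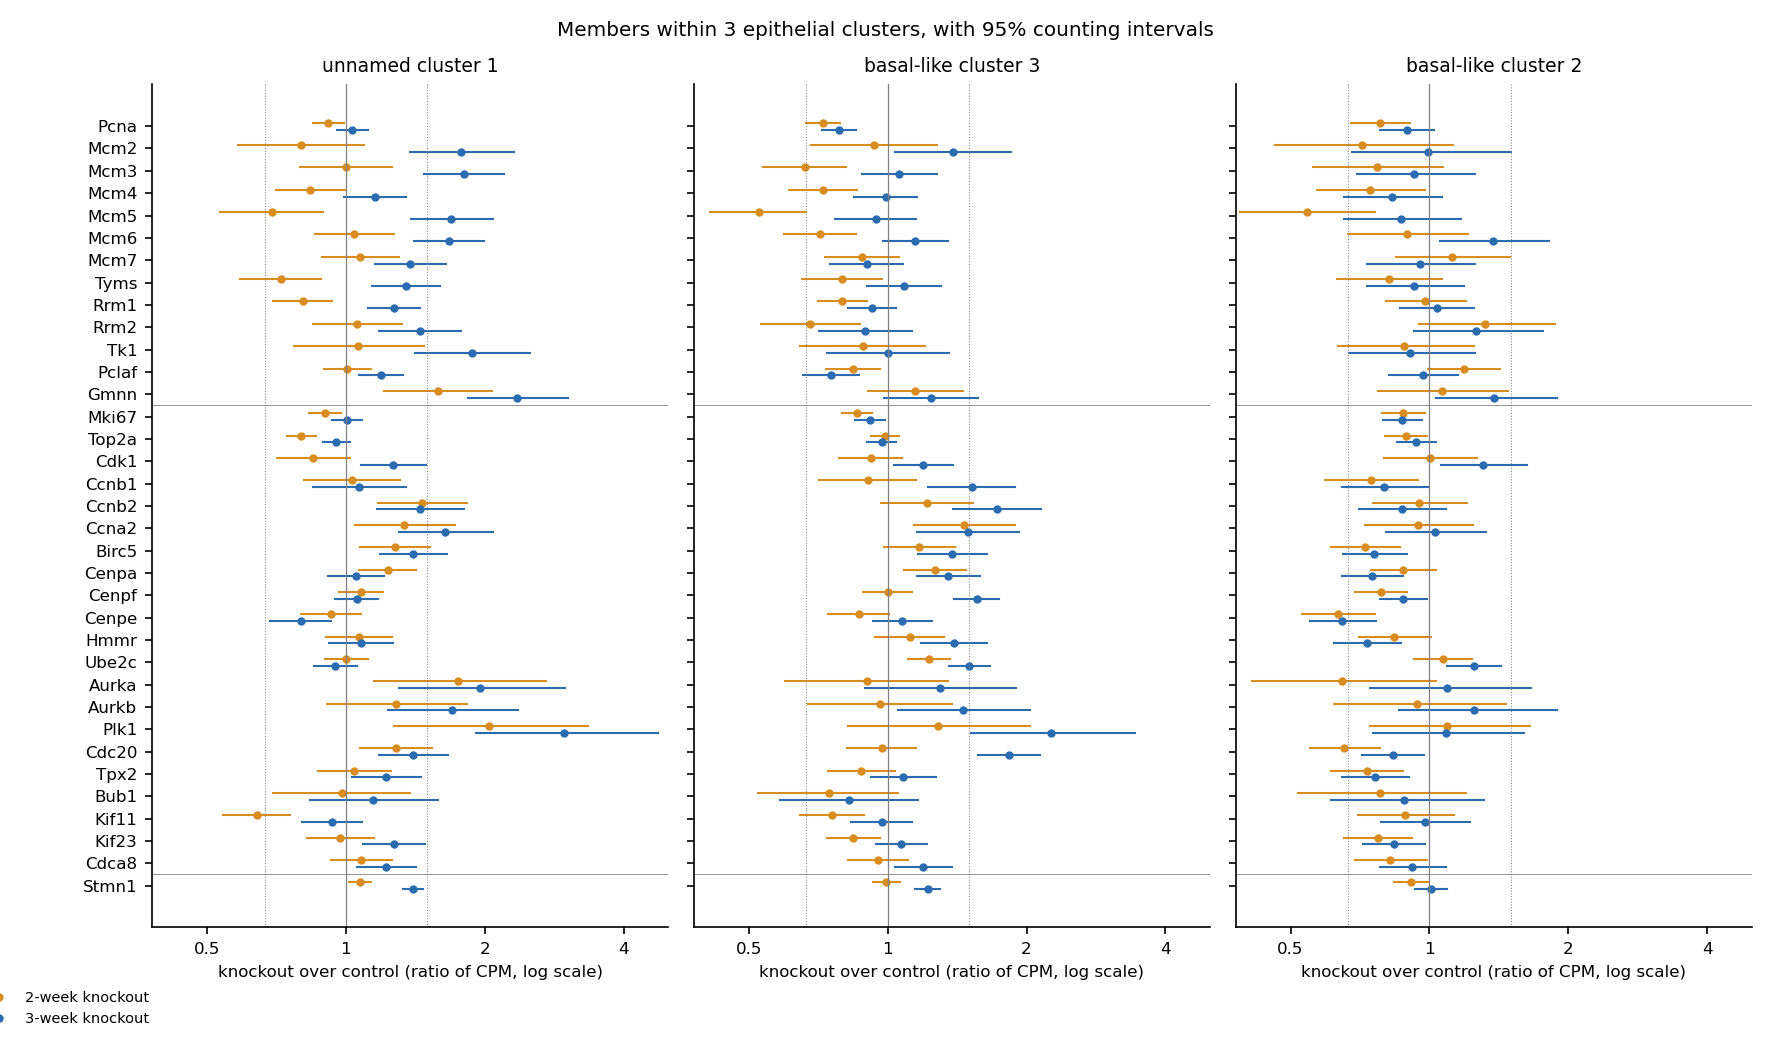
Ratio of CPM in each knockout over control for the 35 members within clusters 1, 3 and 2 (log scale, dotted lines at 1.5-fold either way), with 95% counting intervals. At 3 weeks Mcm2, Mcm3, Mcm5 and Mcm6 lie past the upper dotted line in cluster 1 and not in clusters 3 and 2, Plk1 lies past it in clusters 1 and 3, and Cdc20 in cluster 3.

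The members also differed in how strictly they marked dividing cells. With the 3 libraries pooled, of all epithelial UMIs of Hmmr, a spindle-associated protein, 98.6% lay in cells that other members called as S-phase or mitotic, and the share was 96.0% for Bub1, 95.8% for Plk1 and 95.8% for Ccna2. It was lower for Kif23, a kinesin of cytokinesis (68.8%), Cenpa (76.0%) and Aurka (78.8%). By library it varied, at 72.4%, 68.0% and 68.0% for Kif23, 65.1%, 67.5% and 88.5% for Cenpa and 86.4%, 63.9% and 88.4% for Aurka. Among S-phase members it ran from 88.7% for Pclaf over 69.3% for Tk1 and 53.9% for Mcm5 to 20.9% for Mcm4 and 11.0% for Pcna, and it was 57.5% for Stmn1. Pcna transcripts were found in 27.1% of thinned epithelial cells with neither set, and Mki67 in 1.62%. In T or natural killer-like cells Cenpa stood at 437, 455 and 334 CPM and Rrm1 at 222, 400 and 239 CPM, while Mki67 was at 8.61, 259.5 and 11.6 CPM, from 105, 92 and 203 cells. In the 2-week library 1 cell held 58.6% of the mitotic UMIs of that class.

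S-phase members fell into 2 kinds by the cells that held them, with the 3 libraries pooled. The MCM genes were higher in the cells with S-phase but not mitotic members than in mitotic cells: Mcm6 stood at 92.9 against 42.3 CPM, Mcm2 at 45.3 against 20.2 and Mcm3 at 85.1 against 46.4, with 13.0, 4.06 and 5.98 CPM in cells with neither. For Mcm7 the levels were close, at 69.7 against 65.9 CPM, and their order differed between libraries. Pclaf (63.5 against 313 CPM), Tk1 (15.7 against 67.5) and Rrm2 (26.5 against 93.4) were higher in the mitotic cells. Of the cells with mitotic members, 41.3%, 38.6% and 45.4% also had S-phase members in control, 2-week and 3-week knockout, with overlapping intervals. Of those without mitotic members, 2.02% (1.55 to 2.59), 1.94% (1.64 to 2.28) and 3.81% (3.34 to 4.32) had S-phase members.

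**Figure D5:**
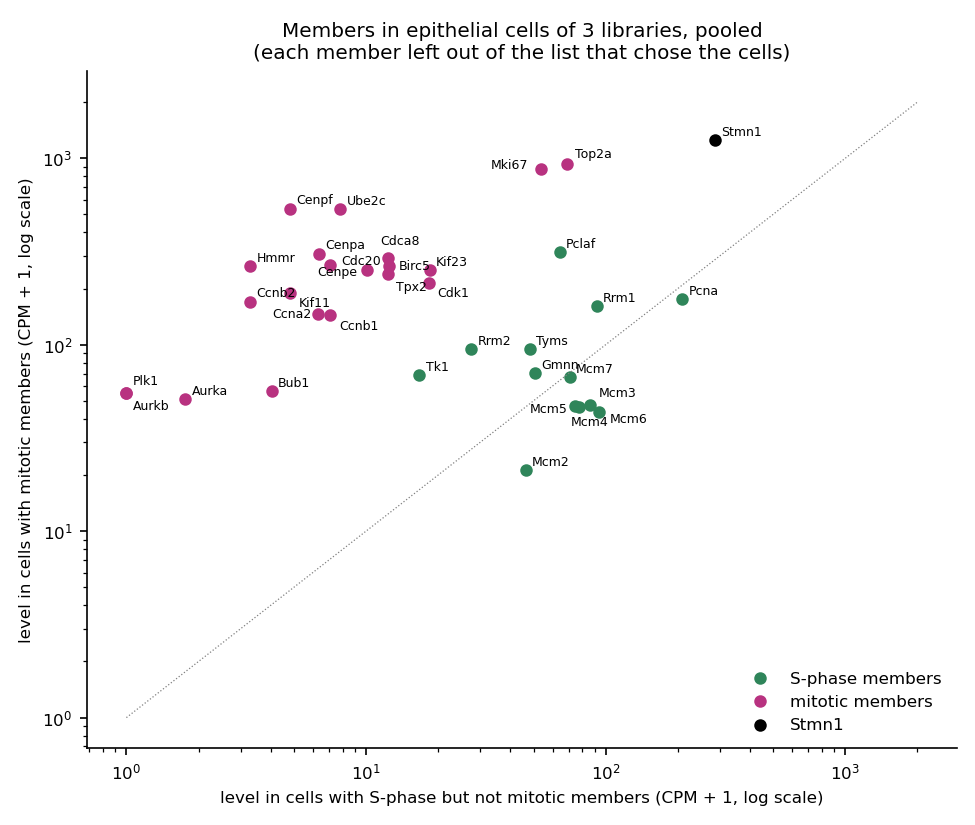
Level of each member (CPM + 1, log scales) in epithelial cells with S-phase but not mitotic members (x) and with mitotic members (y), 3 libraries pooled and each member left out of the list that chose the cells. The dotted line marks equal levels: MCM genes lie below it, Mcm7 close to it, and Pclaf, Tk1 and Rrm2 above it. All mitotic members lie far above it, but the other mitotic members chose the cells of both axes, so this is a description.

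Genes of the cycle outside the 35 members were read in the same cells, 3 libraries pooled. E2f1, an activator of S-phase genes, was at 28.5 CPM in cells with S-phase but not mitotic members, 10.2 in mitotic cells and 2.14 in cells with neither. The D cyclins of G1 had their highest level in the first kind and their lowest in mitotic cells: Ccnd1 stood at 132, 54.3 and 67.4 CPM and Ccnd2 at 528, 196 and 274 CPM. Of the inhibitors of cyclin-dependent kinases, Cdkn2c was at 36.5 CPM in mitotic cells against 5.82 in cells with neither, Cdkn2d at 127 against 29.0, and Rbl1, a pocket protein, at 37.5 against 4.81. Cdkn1a, or p21, went the other way at 902 against 1376 CPM. Krt1, a keratin of suprabasal cells, was at 349.8 against 1446 CPM and Krt14 at 9432 against 5399.5 CPM. Within basal-like cells alone Ccnd2 stood at 172 CPM in mitotic cells against 535 and Cdkn2c at 44.3 against 3.38. Median depth was 17412.5 UMIs in mitotic cells, 12893 in S-phase cells and 9735 in the rest.

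Genes in none of the lists were ranked by their ratio to epithelial cells with neither set. For mitotic cells the genes with the largest ratio were Hist1h3b, Hist1h2af, Pimreg, Depdc1a, Iqgap3, Ska1, Aspm, Esco2, Knl1 and Kif14. Aspm, a spindle pole protein, was at 197 CPM in mitotic cells and 0.746 CPM in cells with neither, and Knl1, a kinetochore protein, at 150 and 0.633 CPM. Hist1h3b, a histone gene, was at 61.6 CPM in mitotic cells and 0.143 CPM in cells with neither. It was at 1.15 CPM in cells with S-phase but not mitotic members. The name mitotic rests on the list alone, and part of these cells also held S-phase members, as given above. For cells with S-phase but not mitotic members they were Pole, Ncaph, Timeless, Tcf19, Slfn9, Cit, Cenpk, Chek1, Zwilch and Cenph. Pole, the catalytic subunit of DNA polymerase epsilon, was at 14.9 CPM in these cells against 1.03 CPM in cells with neither. Timeless, a replication fork protein, was at 18.3 against 1.32 CPM. Most of this second list did not mark S-phase cells alone. Mitotic cells held still more of Cit (84.3 against 9.17 CPM), Ncaph (52.4 against 10.3), Cenpk, Cenph, Zwilch and Pole. Timeless, Slfn9, Tcf19 and Chek1 were not higher in mitotic cells. These cells were chosen by the members, so the values are descriptions.

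The other lists were also compared between libraries in epithelial cells. Of 38 other S-phase genes 4 were 1.5-fold higher at 2 weeks and 5 at 3 weeks, with 0 lower in either. Of 47 other genes of G2 and mitosis 1 was higher and 2 lower at 2 weeks, and 10 were higher and 0 lower at 3 weeks, among them Gtse1 (1.42, 2.32 and 3.85 CPM), Mxd3 (2.04, 2.68 and 4.91 CPM) and Nusap1 (17.9, 22.5 and 34.4 CPM). Of 11 G1 cyclins, kinases and E2F genes 2 were higher at 2 weeks and 3 at 3 weeks. Ccnd1 was at 45.0, 65.5 and 81.9 CPM and Ccne1, cyclin E1, at 0.970, 2.60 and 1.90 CPM. Of 10 measured inhibitors and pocket proteins 3 were higher in each knockout, Cdkn2d (23.6, 39.3 and 42.3 CPM) in both, while Cdkn1a was at 1658, 1228 and 1217 CPM. These shares stand beside 12% and 10.2% of all genes higher and 7.15% and 10.9% lower.

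In 2 other epithelial classes the mitotic sums were below control in both knockouts. In suprabasal-like cells they were 156, 113 and 95.3 CPM (0.725 and 0.609 times control), while the intervals of the shares of cells with mitotic members overlapped. In control 1 cell held 25.0% of these UMIs, and without the cell with the most UMIs in each library the sums were 118, 104 and 78.8 CPM. The clusters of this class differed in direction. Cluster 4 (led by Mt4 and Krt1) stood at 0.668 and 0.348 times control and cluster 10 (led by Krt1 and Mt4) at 0.416 and 0.373, whereas cluster 13, led by the late differentiation genes Lor, Lce1m and Flg2, stood at 1.87 (1.61 to 2.17) and 2.16 (1.89 to 2.47). In control 1 cell each held 34.1%, 63.0% and 47.95% of the mitotic UMIs of clusters 4, 10 and 13. In upper hair follicle-like cells they were 252, 189 and 188 CPM (0.748 and 0.743). There the class was mostly cluster 6 in control and at 3 weeks (323 of 500 and 485 of 692 cells) but cluster 8 at 2 weeks (620 of 987 cells). Within cluster 6 the ratios were 0.685 and 0.960, and within cluster 8 they were 0.494 and 0.712. Melanocyte-like cells stood at 295, 37.3 and 568 CPM, with 88.0% and 91.5% of the control and 3-week UMIs in 1 cell each.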

How the data were processed

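The values are the authors' deposited counts of unique molecular identifiers (UMIs) per gene and cell barcode in 3 libraries, raw and not normalized, from a 10x Genomics 3' kit. Cell Ranger 6.1.2 and mm10 are named per the submitters' processing notes. The annotation release is not given in the sources used here. Cells were freed with collagenase I and then trypsin, per the labels' protocols.

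Of 5621, 11144 and 11186 barcodes, 363, 960 and 754 had under 500 genes and 415, 973 and 954 had 15% or more mitochondrial UMIs. Scrublet in scanpy 1.11.5 then marked 110, 284 and 394 as doublets, which were left out. All libraries were clustered together on 2000 variable genes (30 components, 15 neighbours, Leiden resolution 1, leidenalg 0.10.2). Cell cycle genes of S phase, G2 and mitosis, histones and genes with a correlation over 0.2 with the summed members were left out. The lists of G1 cyclins, kinases and E2F genes and of inhibitors and pocket proteins were not left out as such. The limit of 0.2 was chosen after a lower one had removed basal keratin genes. Clusters were named by markers, and those without a clear lead stayed unnamed. Names are rebuilt, since no deposited annotation was used. Levels are summed UMIs of a gene per 1000000 UMIs (CPM) with exact Poisson intervals, ratios have exact conditional binomial intervals and shares have Clopper-Pearson intervals (scipy 1.17.1, 95%), all for counting error only. A count of 0 allows 3 cells of the total. Scripts were tested on simulated data.

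Members and lists were chosen with earlier results of these data known. Named are members 1.5-fold higher or lower with at least 50 UMIs in epithelial or basal-like cells, the 3 with the most UMIs in each list, and 10 outside genes with at least 200 UMIs and the largest ratio in each kind of cell. Genes named for single clusters or cell states beyond these were chosen after their values were seen. Alternatives were 18 planned settings, and the fixed cluster mix and the omission of bulge-like cells were added after seeing the data.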

Additional observations from a re-analysis of the deposited data

Results flagged for a closer look

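Several classes with at least 100 cells in every library had sums whose counting intervals lay on opposite sides of control, and the difference between classes was not tested. The mitotic sum at 2 weeks was 2.37 times control in bulge-like, 1.20 in basal-like and 5.88 in fibroblast-like cells, against 0.725 in suprabasal-like and 0.748 in upper hair follicle-like cells. At 3 weeks the same classes stood at 1.60, 1.49 and 2.10 against 0.609 and 0.743. The S-phase sum at 2 weeks was 1.26 in upper hair follicle-like and 1.55 in fibroblast-like cells against 0.925 in bulge-like and 0.928 in basal-like cells. At 3 weeks it was 1.09 in basal-like and 1.19 in fibroblast-like cells against 0.919 in bulge-like cells. With the mix of basal-like clusters held at that of control, the S-phase ratios of basal-like cells were 0.824 and 0.956, so the 3-week ratio passed to the other side of 1. In fibroblast-like cells 1 cell held 81.7% of the mitotic UMIs at 2 weeks and another 45.5% at 3 weeks. Without those cells the levels were 23.3 and 24.2 CPM, beside 21.0 CPM in control with all cells.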

How the results depend on the processing

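No paired analysis was possible because each group is 1 library. Sums and counts in epithelial cells are given as 2-week, then 3-week, over control, and shares as control, 2-week, 3-week. The cause of the changes was not tested. Keeping doublets gave mitotic ratios of 0.905 and 1.26, an S-phase ratio of 0.941 at 2 weeks, and 1 member higher and 1 lower there. Leaving mitochondrial, ribosomal protein, Malat1 and Gm42418 UMIs out of the denominator gave mitotic 0.878 and 1.27, S-phase 0.940 and 1.08 and 1 member lower at 2 weeks, as did clusters made with all variable genes (1 lower). Adding 5 CPM left 0 lower at 2 weeks and 3 higher at 3 weeks, and a limit of 25% higher or 20% lower gave 2 higher and 7 lower at 2 weeks and 20 higher at 3 weeks. Narrower lists gave mitotic 0.903 and 1.32, S-phase 1.02 at 3 weeks and a mitotic share of 4.13% at 2 weeks. Without the unnamed epithelial clusters mitotic ratios were 0.887 and 1.37, the 3-week S-phase ratio 1.02, mitotic shares 4.74% (control) and 3.91% (2-week), S-phase shares 3.16% and 5.41% in the knockouts, with 1 lower at 2 weeks and 13 higher at 3 weeks. Shares moved with the limit: thinned to 5000 UMIs mitotic 6.76%, 5.85% and 7.89% and S-phase 8.55%, 7.19% and 12.1%, with at least 2 members 7.13%, 6.102% and 7.97% and 13.2%, 11.9% and 15.7%, with at least 4 members mitotic 4.20% at 2 weeks and S-phase 2.53%, 1.78% and 3.81%, and unthinned 9.20%, 6.79% and 9.93% and 27.1%, 16.2% and 29.0%. Of the settings added after seeing the data, leaving out bulge-like cells turned the 2-week mitotic ratio to 1.002, with 1.17 at 3 weeks, S-phase 0.937 at 2 weeks, mitotic shares of 6.85%, 7.27% and 7.64% and S-phase shares of 5.10%, 5.11% and 7.41%. Holding the cluster mix gave mitotic 0.934 and 1.05 and S-phase 1.07 at 3 weeks. At Leiden resolution 2, with at least 1000 genes, under 10% mitochondrial UMIs, and each library clustered on its own, all 14 results moved by less than counting error or, for counts of members, by less than 1.5 times.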
